A study of Homo sapiens with 32 samples.

Results

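Peaks of N6-methyladenosine (m6A), a methyl mark on adenosines inside RNA, were described over 7 genes of transforming growth factor beta (TGF-beta) signalling in PANC-1 cells, a long-established line from a human pancreatic ductal adenocarcinoma. The genes were the receptors TGFBR1 and TGFBR2, the signal transducers SMAD2, SMAD3 and SMAD4, and the inhibitors SMAD7 and SKI. A peak was a member if it overlapped the hg19 interval of one of these genes, which 215 of the 424904 peaks in 3 deposited lists did. Control cells were compared with cells whose labels name a knockout of CFL1 or of METTL3, each with 2 libraries of RNA fragments pulled down with an anti-m6A antibody. Of the 32 samples of the series, 12 (6 pull-downs and their inputs) belong to these groups, and the other 20 were not analysed here. Whether the inputs were used in calling the peaks is not stated in the sources used here. All groups were PANC-1 cells with total RNA, and the labels name no other agent, no clone and no guide. CFL1 is cofilin 1, which severs actin filaments, and METTL3 is the catalytic subunit of the main m6A methyltransferase. Neither the loss of these proteins nor the markers of the cell type can be checked in lists of peaks. Libraries take the numbers in their peak names, which are 1 and 2 for control and 3 and 5 for each knockout (the labels number the replicates 1 and 2 in every group), and pairs of values below follow that order.

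TGF-beta ligands bring the type II receptor TGFBR2 and the type I receptor TGFBR1 together, and TGFBR1 then phosphorylates SMAD2 and SMAD3. These bind SMAD4 and enter the nucleus to regulate transcription. SMAD7 blocks the activated type I receptor, and SKI represses SMAD-dependent transcription in the nucleus. In pancreatic ductal carcinoma the pathway is known for tumour-suppressive and invasive roles, and SMAD4 is often inactivated.

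Each peak carries a fold enrichment, which is a ratio over the peak caller's background, and a −log10 q, its strength of evidence. Both are the authors' values, and −log10 q can vary with read depth, which is unknown here. RNA levels were not analysed, so a missing peak is not by itself a loss of methylation. Libraries held 63859 to 79467 peaks in all. Separate cultures are not stated for the libraries of a group, so their spread may be only technical. With 2 against 2 libraries an exact two-sided permutation test cannot go below p = 0.333, so no difference below could pass a threshold of 5%, and groups are described by whether their libraries overlap.

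The 7 genes together held fewer peaks in the knockouts than in control. Control had 51 and 46 peaks, the CFL1 knockout 34 and 31, and the METTL3 knockout 25 and 28. No knockout library reached a control library. The mean number relative to control was 0.67 for CFL1 and 0.546 for METTL3, whereas over the whole lists these ratios were 0.885 and 0.82. The ratios depended on how strong a peak had to be. Counting peaks with a −log10 q of 10 or more, they were 0.787 for the CFL1 and 0.738 for the METTL3 knockout, beside 1.07 and 1.02 over the whole lists. Counting peaks with a fold of 4 or more, the METTL3 knockout stood at 1.03 of control and the CFL1 knockout at 0.839, beside 1.07 and 1.12 over the whole lists. The running numbers in the peak names skip values, and 22.5% and 28.6% were missing in control, 50.2% and 42.0% in the CFL1 knockout, and 44.0% and 41.8% in the METTL3 knockout. The highest running number was 100151 and 111357 in control, 146176 and 114320 in the CFL1 knockout, and 113953 and 111604 in the METTL3 knockout. Every knockout library was thus numbered higher than both control libraries, although its list held fewer peaks. The ratios over the whole lists therefore hold for the lists as given. Why numbers are missing was not tested. The numbers follow the position along the chromosome. Between the outermost peaks of the 7 genes few were missing, with 4 and 4 in control, 3 and 0 for the CFL1 knockout, then 2 and 5 for the METTL3 knockout.

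TGFBR2, SMAD2, SMAD3 and SMAD4 had every knockout library below both control libraries, which makes 4 of 7 genes. As a background, the same held for 26.1% of 12566 windows of 100 kb across the genome. The genes themselves span 30.9 to 131 kb, so their own background may differ from that of the windows. Windows also needed a mean of only 1 peak per library and were not matched to the genes in number of peaks. With few peaks the groups separate less easily, so the window shares here and below do not measure how rare such genes are. Against the CFL1 knockout alone, these 4 genes lay below control (31.6% of windows), and SKI lay above it (25.8% of windows). Against the METTL3 knockout, 6 of the 7 genes lay below control (33.4% of windows), TGFBR1 overlapped it and none lay above it (24.9% of windows). Each of these separated genes had an exact two-sided permutation p of 0.333 with n = 2 libraries a group. Among peaks of −log10 q 10 or more, 5 genes lay below control in the CFL1 knockout (TGFBR1, TGFBR2, SMAD2, SMAD4 and SMAD7, beside 21.5% of windows) and SKI lay above (26.9%). In the METTL3 knockout, TGFBR2, SMAD2, SMAD4 and SMAD7 lay below (21.4%) and none above (26.2%). SMAD3 overlapped control there in both knockouts, with 10 and 6 such peaks in control, 6 and 7 in the CFL1 knockout and 7 in each METTL3 knockout library. At a fold of at least 4, only 2 genes (SMAD3 and SMAD4) lay below control in the CFL1 knockout (20.9% of windows) and SMAD4 alone in the METTL3 knockout (21.6%). None lay above at that fold (31.5% of windows for CFL1 and 30.5% for METTL3).

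**Figure D1:**
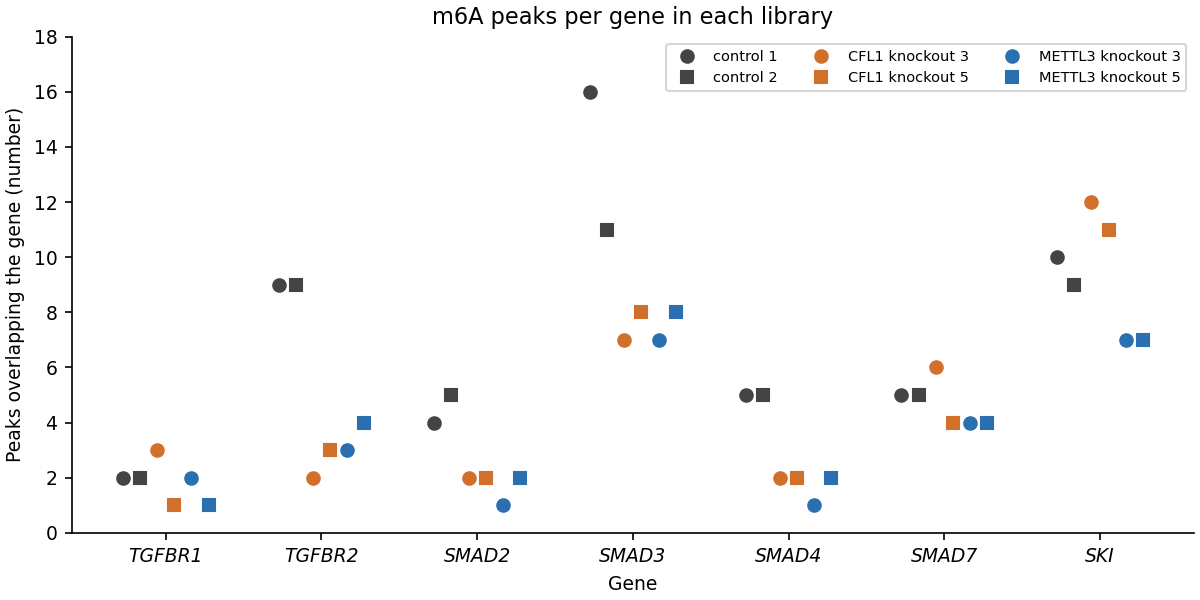
Number of m6A peaks overlapping each gene (vertical axis) in each of the 6 libraries; circles and squares are the 2 libraries of a group, in dark grey for control, orange for the CFL1 knockout and blue for the METTL3 knockout. The control symbols of TGFBR2 stand at 9 and its knockout symbols between 2 and 4, while the CFL1 knockout symbols of SKI, at 12 and 11, are the highest for that gene.

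The bases under peaks gave a similar picture, a measure that was added after the data were seen. TGFBR2 had 2716 and 3085 bp under peaks in control, 1320 and 1115 in the CFL1 knockout, and 1199 and 1381 in the METTL3 knockout. SMAD4 had 1649 and 1712 bp in control, 502 and 510 in the CFL1 knockout, and 257 and 582 in the METTL3 knockout. SMAD3 had 7177 and 5827 bp in control, 2940 and 3364 in the CFL1 knockout, and 4484 and 4407 in the METTL3 knockout. In these genes no knockout library overlapped control. On this measure 6 of the 7 genes, all but SKI, lay below both control libraries in each knockout. The same was true of 40.9% of windows for the CFL1 knockout and 39.6% for the METTL3 knockout. SKI lay above control in the CFL1 knockout (30.4% of windows) and overlapped it in the METTL3 knockout, where no gene lay above (32.6%).

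The peaks of all libraries were joined into sites where they overlapped, which gave 79 sites over the 7 genes. Of these, 35 (44.3%) had a peak in control only and 18 (22.8%) in all 3 groups, beside 32.6% and 16.4% of all 174376 sites of the lists. Sites with no control peak took smaller shares than over all sites. Of these, 6 were found in both knockouts (7.59%, beside 11% of all sites), 9 in the CFL1 knockout only (11.4%, beside 20.1%) and 4 in the METTL3 knockout only (5.06%, beside 14.5%). A further 5 were shared by control and the CFL1 knockout alone (6.33%, beside 2.73%) and 2 by control and the METTL3 knockout alone (2.53%, beside 2.72%). The control-only sites were weak, with a median of their highest −log10 q of 9.29, and 23 of the 35 were found in 1 control library. The other 12 were found in both, as were 23278 of the 56888 control-only sites of the whole lists. No such median is given over all sites. Sites of all 3 groups had a median of 123, where the highest value was taken over more libraries.

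Of the 60 control sites, 37 had no CFL1 knockout peak (61.7%, exact 95% binomial interval 48.2% to 73.9%) and 40 had no METTL3 knockout peak (66.7%, 53.3% to 78.3%). These shares lay near those of all control sites, 64.9% and 65.0%. For sites without a control peak the shares were lower than over all sites. Of 38 CFL1 knockout sites, 15 had no control peak (39.5%, 24.0% to 56.6%), against 62.0% of all CFL1 knockout sites. Of 30 METTL3 knockout sites, 10 had none (33.3%, 17.3% to 52.8%), against 57.2%. The intervals cover counting error only, since neighbouring sites are not independent, and the difference from the rest was not tested. Among sites found in both control libraries, 12 of 36 had no peak in any of the 4 knockout libraries (33.3%, 18.6% to 51.0%; 45.1% of all such sites). Restricted to sites of both libraries of the list counted, the share without a CFL1 knockout peak was 36.1%, and that of CFL1 knockout sites without a control peak 23.8%. A fold of at least 4 was asked of the peaks of every library, so weaker peaks did not count as present. Under that rule 36.8% of control sites had no METTL3 knockout peak and 52.6% no CFL1 knockout peak. No control peak of that fold was found at 47.1% of CFL1 knockout sites (8 of 17) and 45.5% of METTL3 knockout sites (10 of 22). Such sites could hold a control peak of lower fold, as did site 2 of SMAD7, described below. The shares are thus not of sites without any control peak. Without CFL1 knockout 3, the share of CFL1 knockout sites without a control peak was 25.0%. No share over all sites is given for these restricted counts, so they cannot be set against the shares over all sites above.

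**Figure D2:**
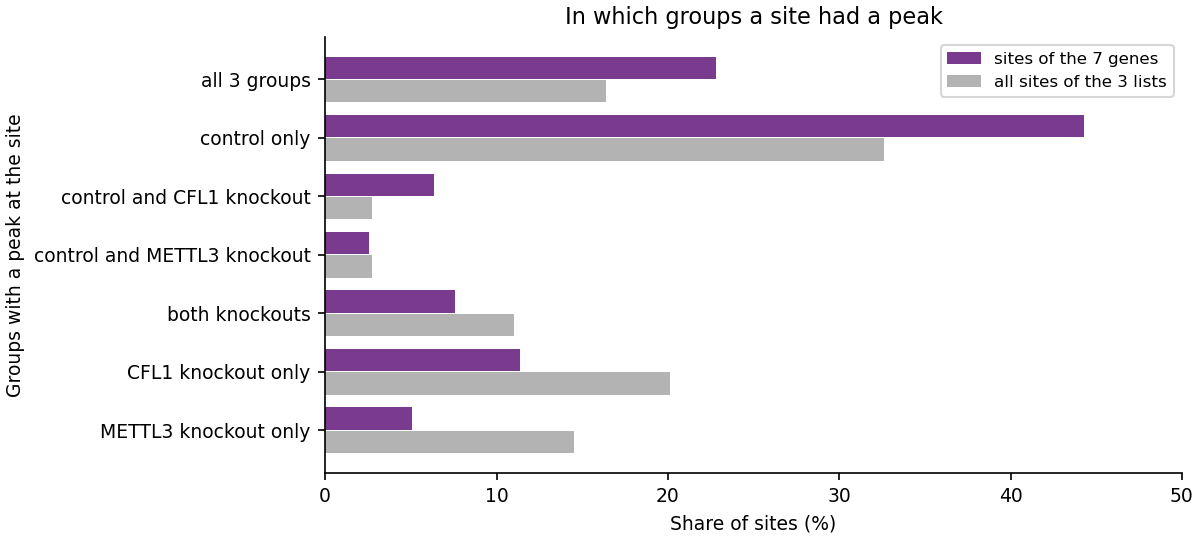
Share of sites in percent (horizontal axis) by the groups that had a peak there, for the 79 sites of the 7 genes (purple) and all 174376 sites (grey). Control-only sites take 44.3% of the gene sites and 32.6% of all sites, and sites found in 1 knockout group only take smaller shares of the gene sites than of all sites.

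Sites found in every library were wider and stronger than those found in 1 library. The width of a site spans its joined peaks from all libraries, and its strength is the highest −log10 q of any library. Both can therefore grow with the number of libraries alone. Sites are numbered from the start of each gene in the direction of transcription, with strands from RefSeq, except for SKI, whose forward strand is textbook knowledge. Exons and introns are not given here, because no hg19 annotation was used. A total of 13 sites were found in all 6 libraries, 3 each in SMAD3 and SMAD7, 4 in SKI, 2 in TGFBR2 and 1 in SMAD2, and none in SMAD4 or TGFBR1. That is 16.5% of the gene sites, and over all sites 10.8% were found in all 6 libraries. Of the 13, 4 lay in the first and 4 in the last 10% of their gene. Of the 66 sites found in fewer than 6 libraries, 7 lay in the first and 12 in the last 10%. The median width of the 13 was 960 bp and the median of their highest −log10 q was 201. The 33 sites found in 1 library were narrow, with a median width of 215 bp and a median −log10 q of 6.67, and 1 of them lay in the last 10% of its gene.

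**Figure D3:**
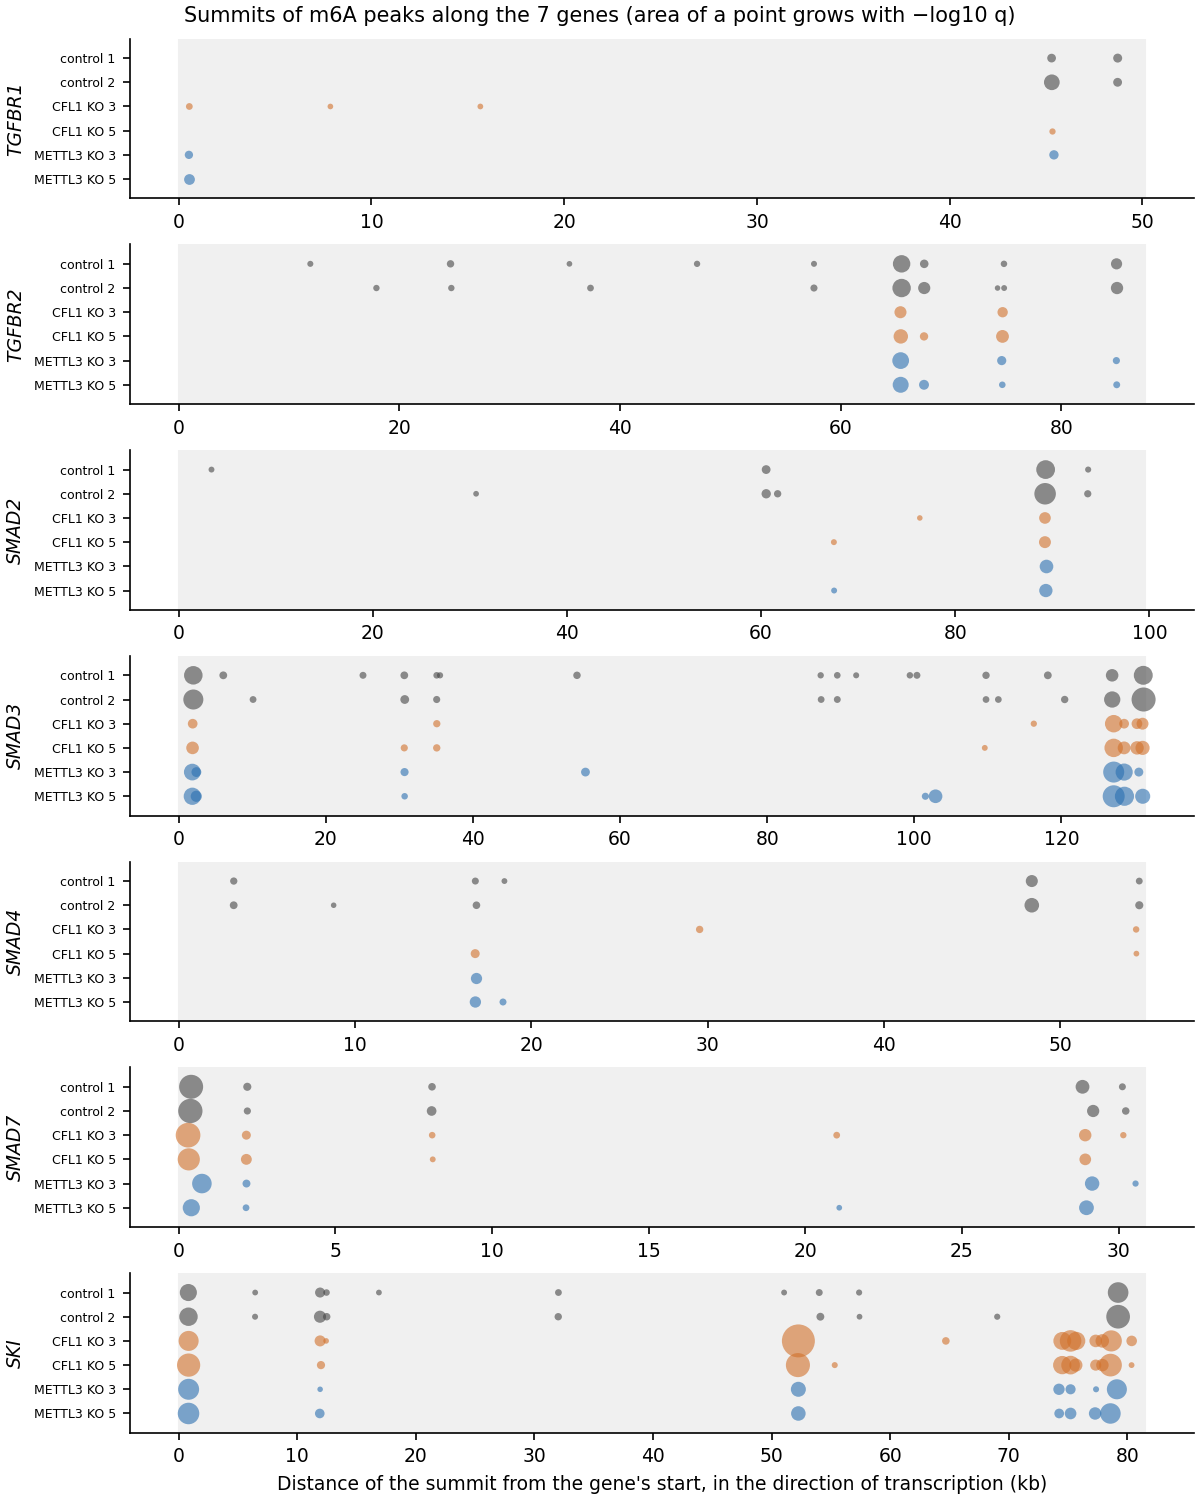
Summits of the peaks in each library (1 line each) against the distance in kb from the start of each gene, in the direction of transcription; the area of a point grows with −log10 q, colours are those of the groups and the grey band is the gene. Large points line up across the 6 libraries near the ends of SMAD3, SMAD7 and SKI, and most small points in the middle of TGFBR2 and SMAD3 are in the control lines.

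TGFBR2, the receptor that binds the ligand, had many weak control peaks and few knockout peaks. It spans chr3:30647994-30735633 (87.6 kb) and held 9 peaks in each control library, 2 and 3 with the CFL1 knockout, and 3 and 4 with the METTL3 knockout. The groups did not overlap, and the knockout means were 0.278 (CFL1) and 0.389 (METTL3) of control. Among peaks of −log10 q 10 or more the gap was smaller, with 4 in each control library, 2 and 3 in the CFL1 knockout and 3 in each METTL3 knockout library. At a fold of 4 or more, both knockout means lay 0.5 peaks lower than control, and the groups overlapped. Of its 11 sites, 7 were found in control only. These 7 were weak and lay in the part of the gene before its strongest site, and the one with the highest −log10 q (site 3, at 30672542 to 30672883) reached 13.2 in control 1 and 6.84 in control 2. The strongest site of TGFBR2, site 8 at 30713014 to 30713846, was found in all 6 libraries, with −log10 q of 128 and 144 in control, 55.1 and 83.8 with the CFL1 knockout, and 117 and 106 with the METTL3 knockout. Its fold differed little, from 3.13 to 3.8 over the 6 libraries. All 4 knockout libraries lay below control on the −log10 q scale. Site 10, at 30722111 to 30722985, lay above control on that scale. It had a −log10 q of 7.3 and 4.01 in control, 37.2 and 63.7 in the CFL1 knockout, and 26.8 and 7.84 in the METTL3 knockout. The fold at site 10 was above control in the CFL1 knockout alone (4.97 and 6.65, against 4.14 and 3.15), and the METTL3 knockout overlapped control, at 4.07 and 2.51. Site 11, at 30732789 to 30733254 and 2.38 kb before the end of the gene, was absent from both CFL1 knockout libraries. There −log10 q was 45.5 and 57.7 in control and 11.6 and 10 in the METTL3 knockout, with folds of 3.1, 3.04, 1.88 and 1.88. Site 9, between the sites 8 and 10, had a −log10 q of 21.6 and 56.4 in control, and was listed in 1 library of each knockout, at 20.1 in CFL1 knockout 5 and 33.3 in METTL3 knockout 5.

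TGFBR1, the kinase that phosphorylates the receptor-regulated SMADs, had the fewest peaks, and its groups overlapped in number. It spans chr9:101866320-101916474 (50.2 kb) and held 2 peaks in each control library, 3 and 1 with the CFL1 knockout, and 2 and 1 with the METTL3 knockout. The places of these peaks differed between the groups. Site 1, at 101866626 to 101867120 and 0.306 kb after the start of the gene, had no control peak. It was listed with a −log10 q of 19.8 and 41.7 and a fold of 10.9 and 18.7 in the METTL3 knockout, and with 9.15 and 4.62 in CFL1 knockout 3. At the other end, site 5, at 101914698 to 101915182, was listed in control alone, with a −log10 q of 25.2 and 24.0. Site 4, at 101911363 to 101912222, was the strongest and was uneven within groups. Its −log10 q was 23.1 and 101 in control 1 and 2, 28.3 in METTL3 knockout 3 and 6.16 in CFL1 knockout 5, and the other library of each knockout had no peak there. No TGFBR1 peak of a CFL1 knockout library had a −log10 q above 9.15.

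SMAD2, which carries the receptor signal to SMAD4, had a single strong site. The gene spans chr18:45357922-45457515 on the reverse strand (99.6 kb). It held 4 and 5 peaks in control, 2 and 2 with the CFL1 knockout, and 1 and 2 with the METTL3 knockout, with no overlap between control and either knockout. Site 7, at 45367821 to 45368477 and 9.9 kb before the end of the gene, was found in all 6 libraries. Its −log10 q was 150.1 and 201 in control, 50.6 and 53.7 in the CFL1 knockout, and 73.6 and 69.6 in the METTL3 knockout. The fold there was 5.92 and 5.93 in control, 5.81 and 4.76 in the CFL1 knockout, and 4.49 and 4.91 in the METTL3 knockout. All 4 knockout libraries were thus below control on both scales, by little on the fold. Of the other 7 sites, 5 were found in control only. The strongest of these, site 3 at 45396918 to 45397122, had a −log10 q of 23.6 and 28.1 in control 1 and 2, and no knockout library listed it. The sites of SMAD2 with a knockout peak but no control peak, sites 5 and 6, had a −log10 q of at most 4.32.

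SMAD3, the other receptor-regulated SMAD, held the most sites of the 7 genes. It spans chr15:67356101-67487533 and had 16 and 11 peaks in control 1 and 2, 7 and 8 with the CFL1 knockout, and 7 and 8 with the METTL3 knockout. The knockouts lay below both control libraries, which themselves differed by more than the 4 knockout libraries did. Both knockouts had a mean 6 peaks lower than control, and 3.5 lower without control 1. At a fold of at least 4 the METTL3 knockout had a mean 2 peaks higher than control. Of its 24 sites, 13 were found in control only, and 2 of these in both control libraries. The one of these with the higher −log10 q, site 12 at 67445593 to 67445794, had a −log10 q of 8.29 and 9.74. The remaining 11 were listed in 1 control library each, 8 of them in control 1 and 3 in control 2.

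The 3 SMAD3 sites of all 6 libraries lay near the start and the end of the gene and differed in direction. Site 1, at 67357743 to 67358253, had a fold of 8.39 and 8.75 in control, 2.86 and 3.79 in the CFL1 knockout, and 8.32 and 9.24 in the METTL3 knockout. On the fold only the CFL1 knockout stood apart there, while the METTL3 knockout libraries lay on both sides of control. Its −log10 q was 146 and 173 in control, 31.2 and 61.4 in the CFL1 knockout, and 117 and 126 in the METTL3 knockout, so that both knockouts lay below control on that scale. Directly after it, site 2, at 67358294 to 67358649, was listed in the METTL3 knockout only, with a −log10 q of 32.5 and 45.6. The METTL3 knockout also had 3 sites of its own inside the gene, each listed in 1 library. The strongest of these, site 17, at 67458927 to 67459134, reached a −log10 q of 74.3 in METTL3 knockout 5 and was not listed in METTL3 knockout 3. In contrast, site 7, at 67391025 to 67391478, was listed in both control libraries (7.91 and 11.4) and both CFL1 knockout libraries (12.4 and 13), and in no METTL3 knockout library. Site 23, at 67482634 to 67485063, had a fold of 2.01 and 2.35 in control, 2.96 and 3.03 in the CFL1 knockout, and 4.11 and 5.61 in the METTL3 knockout. All knockout libraries were above control at this site, on the −log10 q scale too. The bases under peaks went the other way, with 2140 and 2166 bp in control. They were 1264 and 1314 bp in the CFL1 knockout and 1888 and 1954 bp in the METTL3 knockout. Each control library had 1 peak there and each knockout library 2. Site 24, at 67486233 to 67487462, at the end of the gene, was the strongest of SMAD3. Its −log10 q was 153 and 254 in control, 53.6 and 80.4 in the CFL1 knockout, and 24.8 and 92.7 in the METTL3 knockout. The fold at site 24 placed the CFL1 knockout (2.86 and 3.05) below control (3.63 and 4.56), whereas the METTL3 knockout libraries, at 1.89 and 4.67, lay on both sides. On the −log10 q scale, all knockout libraries thus lay above control at site 23 and below it at site 24.

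SMAD4, the common partner of the receptor-regulated SMADs, had its strongest site in control alone. The gene spans chr18:48556583-48611411 (54.8 kb) and held 5 peaks in each control library, 2 in each CFL1 knockout library, and 1 and 2 in the METTL3 knockout. Site 6, at 48604599 to 48605149 and 6.26 kb before the end of the gene, had a −log10 q of 54.8 and 86.2 and a fold of 5.64 and 6.27 in control 1 and 2. None of the 4 knockout libraries listed a peak there. It had the highest −log10 q of the 12 sites found in both control libraries and in no knockout library. Site 1, at 48559518 to 48559851, showed the same pattern at a lower −log10 q of 12.3 and 15.9. Site 3, at 48573221 to 48573646, ran against this. Its −log10 q was 10.6 and 14.7 in control, 46.3 and 47.2 in the METTL3 knockout and 25.3 in CFL1 knockout 5, and CFL1 knockout 3 had no peak there. Site 7, at 48610824 to 48611234 at the end of the gene, was kept in both CFL1 knockout libraries (−log10 q 7.16 and 3.3, against 9.53 and 18.3 in control) and absent from both METTL3 knockout libraries. Of the other 3 sites of SMAD4, none was listed in more than 1 library of a group, and the strongest of them, site 5, had a −log10 q of 13 in CFL1 knockout 3. No SMAD4 site was found in all 6 libraries.

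SMAD7, which blocks the type I receptor and is itself induced by TGF-beta, had most of its control sites in the knockouts too, at lower −log10 q in part. It spans chr18:46446223-46477081 on the reverse strand (30.9 kb). It held 5 peaks in each control library, 6 and 4 with the CFL1 knockout, and 4 in each METTL3 knockout library. All 5 of its control sites had a CFL1 knockout peak, and 4 of them a METTL3 knockout peak. Among peaks of −log10 q 10 or more, however, SMAD7 held 5 in each control library, 3 in each CFL1 knockout library, and 3 and 2 in the METTL3 knockout, with no overlap with control. The control site without a METTL3 knockout peak was site 3, at 46468905 to 46469120, with a −log10 q of 14.5 and 31.1 in control and 7.92 and 3.8 in the CFL1 knockout. Site 5, at 46447467 to 46448426 near the end of the gene, was found in all 6 libraries, with a −log10 q between 51.1 and 88.6. Its fold was lower than control in the CFL1 knockout, at 3.84 and 3.27 against 7.95 and 4.42, while the METTL3 knockout had 7.39 and 10.6, of which the first lay between the control values. At site 2, at 46474776 to 46475000, the CFL1 knockout had the highest −log10 q, at 25.3 and 42.5, beside 18.4 and 11.6 in control and 17.0 and 9.06 in the METTL3 knockout. The fold at site 2 was above control in both knockouts, at 5.2 and 7.0 for CFL1 and 6.05 and 3.88 for METTL3, against 3.7 and 2.66. Site 6, next to site 5, was listed in 1 library of each knockout. The sole SMAD7 site without a control peak, site 4, was weak, at 9.07 in CFL1 knockout 3 and 3.0 in METTL3 knockout 5.

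The strongest SMAD7 site, site 1, crossed the start of the gene. It reached from 46476128 to 46478471, 1390 bp beyond the interval's start. Its fold was 35.6 and 34.2 in control, 15.3 and 8.12 in the CFL1 knockout, and 16.5 and 12.7 in the METTL3 knockout. All 4 knockout libraries were thus below both control libraries on the fold, by more than the spread within any group. On the −log10 q scale the CFL1 knockout, at 269 and 214, lay on both sides of control, at 253 and 260, and the METTL3 knockout, at 164 and 124, lay below. The shape of the peak differed as well. The CFL1 knockout libraries had 1 peak of 2094 and 2344 bp there. Control and the METTL3 knockout had a peak of 712 to 842 bp inside the site, which touched the gene, and a further peak beyond the start, which did not touch it and is not counted above. Because peaks were listed beyond the start, the 250 bases before the outermost SMAD7 start in RefSeq (GRCh38.p14, chr18:48950966-48951215, reverse strand) are shown, 5′ to 3′. Capitals mark matches on the strand of the gene to GGAC or AGAC followed by A, C or T, spellings of the motif known around methylated adenosines.
SMAD7 upstream: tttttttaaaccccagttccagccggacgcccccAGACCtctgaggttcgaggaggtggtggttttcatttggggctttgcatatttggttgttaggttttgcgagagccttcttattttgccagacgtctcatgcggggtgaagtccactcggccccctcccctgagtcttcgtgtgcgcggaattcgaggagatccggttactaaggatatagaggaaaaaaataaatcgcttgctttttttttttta
This window holds 1 match on the strand of the gene and 2 on the other strand. Of 35116 windows of the same length in the table, 73.8% hold a match on the strand of the gene and 93.4% on either strand. The table is of another build than the peaks, so the window was not placed against their summits. The table holds 6 of the 7 genes, without SKI.

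SKI, the nuclear repressor of SMAD-dependent transcription, held more peaks in the CFL1 knockout than in control and fewer in the METTL3 knockout. It spans chr1:2160134-2241652 (81.5 kb) and had 10 and 9 peaks in control, 12 and 11 with the CFL1 knockout, and 7 and 7 with the METTL3 knockout. The place of the CFL1 knockout above control by number rested on site 17. That site was listed as 2 peaks in each CFL1 knockout library and as 1 in every other library. With it counted once, CFL1 knockout 5 would only equal control 1. No other of the 7 genes had the knockouts on opposite sides of control, and 0.74% of windows of 100 kb had more peaks in both CFL1 knockout libraries and fewer in both METTL3 knockout libraries, as SKI did. The knockouts stood on opposite sides in either direction in 1.07% of windows. Windows needed a mean of only 1 peak per library and were not matched to SKI in number of peaks. Windows with few peaks can seldom separate the groups in this way, so these shares do not measure how rare SKI is. The lower number in the METTL3 knockout did not hold among stronger peaks. Restricted to a −log10 q of 10 or more, or to a fold of 4 or more, SKI had a mean 1 peak higher in the METTL3 knockout than in control. Measured by the bases under peaks, control libraries had 6366 and 5998, the METTL3 knockout 6359 and 6409, and the CFL1 knockout 8763 and 8453. On that scale only the CFL1 knockout stood apart from control.

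The largest differences in SKI lay in the last 10% of the gene and at a site 26.8 kb before its end. Site 8, at 2211818 to 2214815, was found in all libraries but was listed at far higher values in the knockouts. Its −log10 q was 10 and 16.5 in control, 489 and 255 in the CFL1 knockout, and 91.9 and 85.5 in the METTL3 knockout. The fold there was 4.72 and 6.06 in control, 21.3 and 12.9 in the CFL1 knockout, and 9.63 and 12 in the METTL3 knockout. The site was also wider, with 813 and 800 bp under peaks in control, 2902 and 2794 with the CFL1 knockout, and 2042 and 2032 with the METTL3 knockout. On each of these 3 scales all knockout libraries were above both control libraries. The summits of the strongest peak of each library lay up to 1894 bp apart at this site, and those of control within 95 bp. The values compared may therefore not concern the same position.

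Sites 13, 14 and 16 of SKI, between 2234242 and 2237554, were listed in every knockout library and had no control peak. They are the only 3 of the 7 genes' sites with this pattern, out of 16 sites found in all 4 knockout libraries (18.8%, against 23.0% of all such sites). Site 14, at 2235148 to 2235495, was the strongest of them, with a −log10 q of 202 and 149 in the CFL1 knockout and 35.2 and 50.5 in the METTL3 knockout. Site 13 had 135 and 143 in the CFL1 knockout and 47.4 and 31.6 in the METTL3 knockout. At both sites the CFL1 knockout had the higher values. At site 16 the METTL3 knockout libraries differed widely, at 4.84 and 59.6, beside 61.0 and 45.4 in the CFL1 knockout. Sites 15 and 18 were listed in both CFL1 knockout libraries only, with a −log10 q of 140 and 68.1 at site 15 and of 39.5 and 3.64 at site 18. Beside them lay site 17, at 2237897 to 2240010, with a −log10 q of 184 and 246 in control, 194 and 226 with the CFL1 knockout, and 173 and 182 with the METTL3 knockout. There the CFL1 knockout overlapped control, and the METTL3 knockout lay below control on −log10 q and above it on the fold, at 7.51 and 9.6 against 5.01 and 5.48. Site 1, at the start of SKI, was also found in all 6 libraries, with a fold of 4.87 and 4.89 in control, 4.91 and 5.84 in the CFL1 knockout, and 8.12 and 10.2 in the METTL3 knockout. The METTL3 knockout thus lay above control there, and so did the CFL1 knockout, by a small margin in CFL1 knockout 3. Site 3, at 2171522 to 2172277, was the fourth SKI site of all 6 libraries and differed widely within the knockout groups. Its −log10 q was 34.6 and 55.7 in control, 44.2 and 19.0 in the CFL1 knockout, and 2.08 and 30.6 in the METTL3 knockout. On the fold every knockout library lay below control there, at 5.54 and 2.92 for CFL1 and 1.79 and 6.33 for METTL3, against 6.78 and 9.05. SKI also had 6 control-only sites. The strongest of these, site 6, at 2191987 to 2192266, had a −log10 q of 9.23 and 13. None of the control-only sites of SKI lay in its last 10%.

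**Figure D4:**
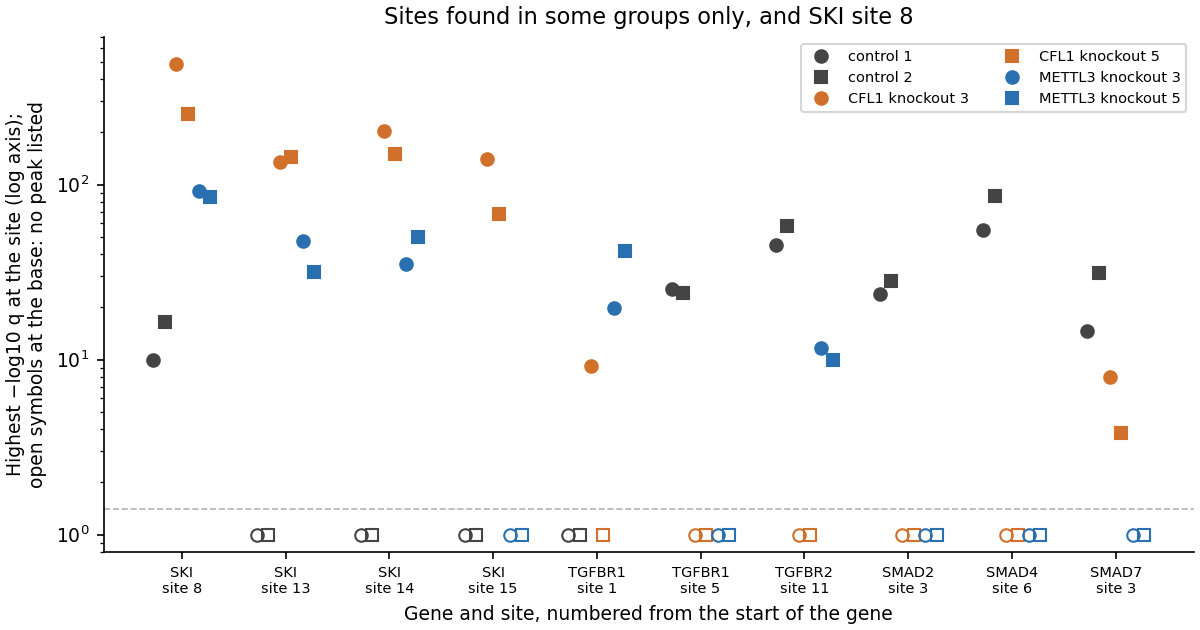
Highest −log10 q (log axis) in each library at 10 sites chosen after their values were seen; open symbols below the dashed line mean that the library lists no peak there. SKI sites 13 and 14 have no control peak, SMAD4 site 6 and SMAD2 site 3 have no knockout peak, and TGFBR2 site 11 lacks only the CFL1 knockout.

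Over the 13 sites found in all 6 libraries, no common direction was seen, and fold and −log10 q did not give the same picture. On the fold, both CFL1 knockout libraries lay below both control libraries at 7 sites (26.4% of all 18877 such sites) and above at 5 (34.0%). Both METTL3 knockout libraries lay below at 3 (20.0%) and above at 5 (43.5%). On the −log10 q scale, the CFL1 knockout lay below at 4 (31.5%) and above at 5 (35.3%), and the METTL3 knockout below at 7 (27.8%) and above at 5 (42.8%). With so few sites the shares are loose, as the exact 95% binomial interval of 7 of 13 runs from 25.1% to 80.8%, and that of 5 of 13 from 13.9% to 68.4%. The summits of the strongest peak of each library lay within 24 to 1894 bp of each other, with a median of 213 bp. The closest agreement was at SKI site 1 and the widest at SKI site 8.

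**Figure D5:**
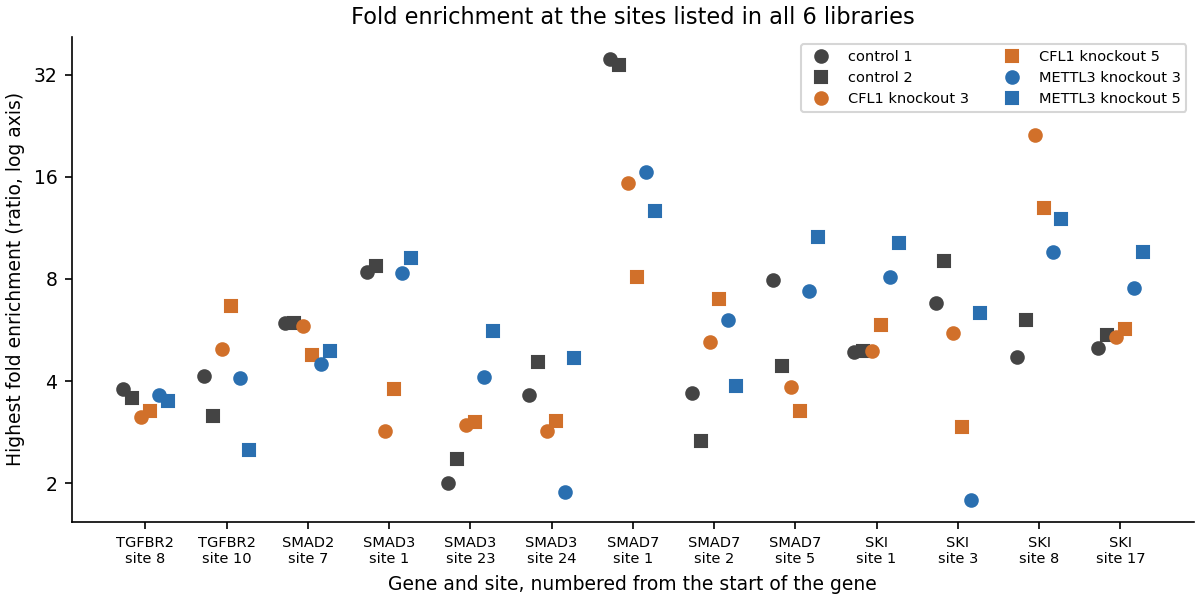
Highest fold enrichment (log axis) in each library at the 13 sites found in all 6 libraries; symbols and colours are those of the groups. Control lies above every knockout library at SMAD7 site 1 (35.6 and 34.2) and below every one at SKI site 8 (4.72 and 6.06) and SMAD3 site 23 (2.01 and 2.35). At SKI site 8 the summits of the libraries lie up to 1894 bp apart.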

How the data were processed

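N6-methyladenosine was measured by antibody pull-down and paired-end sequencing of total RNA. Control, CFL1 knockout and METTL3 knockout antibody samples stand behind the 3 peak lists, grouped by their titles, and the other samples of the series were not analysed here. Per the submitters' processing notes, STAR, MACS2 and bedtools were used with hg19. Their versions and settings, and the background used for calling, were not given in the sources used here. Deposited values in use were the fold enrichment (a ratio), the −log10 q and the summit offset of each peak, as the authors' peak caller gave them. The peak names show 2 libraries per list, called separately. The names of the knockout libraries carry the letters si, while the labels say knockout, and the labels were followed. Gene intervals (hg19) came with the choice of genes, and the genes, sites and lists were chosen with earlier results of these data known.

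Peaks of all libraries that overlapped by at least 1 bp formed a site (Python 3.11.15, pandas 2.3.3). At 1 site, 4 peaks that did not touch the gene were left out. No library held an interval more than once. Named sites are, per gene, the site with the highest −log10 q, and the highest among those of both control libraries absent from each or both knockouts, and of both libraries of a knockout absent from control. Further sites were named after their values were seen. Windows of 100 kb with a mean of at least 1 peak per library, counted by peak midpoints, gave the background for genes, under each rule of counting (bases by the midpoints of their peaks). Joining was tested on simulated data. Read depth is unknown. Alternatives were other thresholds, overlaps and scalings, and each library left out. Bases covered in place of peaks was added after seeing the data. Other genes of the pathway were not analysed here, since no hg19 annotation was used.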

Additional observations from a re-analysis of the deposited data

Results flagged for a closer look

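In SKI the knockouts stood on opposite sides of control by number of peaks. Control had 10 and 9, the CFL1 knockout had 12 and 11, and the METTL3 knockout had 7 and 7. The CFL1 knockout mean was 4.5 peaks above that of the METTL3 knockout. The difference was not tested, and both comparisons share the control libraries. Site 17 of SKI was listed as 2 peaks in each CFL1 knockout library and as 1 in every other library. With it counted once, CFL1 knockout 5 would only equal control 1.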

How the results depend on the processing

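No paired analysis was possible because the labels number the replicates of every group 1 and 2, while knockout peaks are named for libraries 3 and 5, which cannot be matched to those numbers. The ratio of peaks to control was 0.67 for CFL1 and 0.546 for METTL3, and 0.598 for METTL3 where −log10 q had to reach 5. Where it had to reach 10, the ratios were 0.787 and 0.738, per 100000 peaks of the library 0.757 and 0.665, and for bases covered 0.765 and 0.715. With a fold of 4 or more they were 0.839 and, reversed, 1.03. Without each library in turn they ran from 0.637 to 0.707 and from 0.515 to 0.577. Genes below control numbered 4 and 6, but 2 and 1 with a fold from 4. Leaving a library out makes it easier for groups not to overlap, so no such counts are given without each library. In the CFL1 knockout, SMAD7 and TGFBR1 each stood 1 peak above the control mean without CFL1 knockout 5. Each stood 1 peak below it without CFL1 knockout 3. Means per gene that reversed were those of the METTL3 knockout in SKI (1 peak above control with −log10 q from 10 or fold from 4, and 202 bases above it) and in SMAD3 (2 peaks above at a fold of at least 4).

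Control sites absent from the CFL1 knockout (61.7%) made up 42.1% with −log10 q from 10 and 36.1% for sites of both control libraries. Those absent from the METTL3 knockout (66.7%) were 52.6%, 47.2% and, at a fold of at least 4, 36.8%. At that fold, asked of the peaks of every library, control sites absent from the CFL1 knockout were 52.6%. CFL1 knockout sites absent from control (39.5%) were 23.8% for sites of both libraries. Without each library these shares ran from 48.9% to 70.0%, 57.8% to 70.0% and 25.0% to 41.9%, and METTL3 knockout sites absent from control from 25.0% to 36.7%. The cause was not tested. Unknown depth means that an absent peak may lie just under the threshold of the list.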
